A study of Brassica oleracea var. italica with 48 samples.

Results

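The genes described here are 91 of the 60586 features of a broccoli (Brassica oleracea var. italica) transcript table that were low in roots after 1 day without potassium and back near the control level by day 6, while leaves showed little difference on day 6. They were chosen by their measured values in 3 of the study's 6 comparisons of starved and fed plants. For each feature the difference d was the log2 of the starved mean plus 1 minus the log2 of the control mean plus 1, on TPM, a unit that divides reads by coding length and scales them to the same total in every library. A member had a d of -1 or lower in roots on day 1 with its highest starved value below its lowest control value, a d between -0.4 and 0.4 in roots on day 6, and a d between -0.5 and 0.5 in leaves on day 6. The values of root day 1, root day 6 and leaf day 6 are therefore descriptions of the choice, and the tests rest on day 3 in both tissues and on day 1 in leaves.

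Wild-type seedlings were grown on MS plates for 6 days and for 7 more days in hydroponics with K2SO4 at 2 mM, under 16 h of light and 8 h of darkness. The control plants stayed in that medium, and the starved plants were moved to medium without potassium for 1, 3 or 6 days. Only the starved plants are described as moved, so effects of the move and of the loss of potassium cannot be told apart. Roots and leaves of both treatments on each day gave 12 groups, each of 4 libraries with the letters a to d, or 48 libraries in all. Nothing in the labels ties the 4 libraries of a group to different plants, and the spread behind every p-value may therefore be technical. In whole tissue, fewer cells of a type and less RNA per cell cannot be told apart.

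Potassium is the main cation of plant cells, where it sets turgor and membrane potential and activates enzymes. Roots take it up through channels and high-affinity transporters, and when the supply ends they draw on vacuolar stores while transport, ethylene, jasmonate and reactive oxygen signalling genes respond. In Arabidopsis, transcripts of root transporters are known to answer within hours to days, and leaves usually respond later than roots. The deposited feature IDs were not paired with gene names, and 0 of them matched the 53125 genes of the RefSeq table used here, so the members are given by ID and no role is assigned to any of them. For the same reason the labelled tissues were not checked against marker genes.

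Recovered depth was 13819010 to 19735733 reads in root libraries and 18350942 to 20160203 reads in leaf libraries. In leaves up to 21.5% of TPM fell to the top 10 features of a library, against at most 5.90% in roots, and that lowers the TPM of all other leaf features. Of the root libraries, control a of day 1 and starved d of day 3 stood apart, with limma array weights, a measure of how well a library follows its group, of 0.0817 and 0.167. In both, levels relative to the mean of all root libraries also fell with coding length, with Spearman's rho across features of -0.528 and -0.450. The same trend was weaker in control a and c of root day 6, at -0.323 and -0.370. It was weaker still in starved a, b and c of that day, at -0.240, -0.140 and -0.225. Among the leaf libraries, control b and starved d of day 1 and control a of day 3 had weights of 0.178, 0.0967 and 0.194.

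The condition for root day 1 was met by 411 features, and the 91 members are those that also met both conditions for day 6. Of the others, 263 were still at a d of -0.4 or lower in roots on day 6, 34 had passed to 0.4 or higher, and 23 failed only the condition for leaves. Median d of the members was -1.25 on root day 1, with quartiles of -1.46 and -1.12 and a lowest value of -3.10. On root day 6 it was -0.12, with a range of -0.40 to 0.38. Just inside the limit of -1 were Bo4g055070, with means of 1.57 TPM in control roots against 0.283 TPM in starved ones, and Bo4g039090, with 45.3 against 21.9 TPM. Just outside it were Bo8g002840, with 25.7 against 12.4 TPM, and Bo7g111600, with 304 against 152 TPM. The limit thus divided features with nearly equal differences. Without root control a of day 1, the library that stood apart, median d of the members was -1.24 and 70 of the 91 still had a d of -1 or lower.

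Members ranged from rare to very abundant transcripts. In control roots of day 1 their mean levels ran from 1.53 to 5152 TPM, with a median of 30 TPM over members, against 9.70 TPM over the 29422 features tested in roots. At least 100 TPM was reached by 23 members, or 25.3%, against 6.61% of the features tested. Summed over all 91 members, TPM was 12847 ± 1783 (SD, n = 4) in control and 5188 ± 398 (SD, n = 4) in starved roots of day 1. On day 3 the sums were 10381 ± 2339 (SD, n = 4) and 8171 ± 1882 (SD, n = 4). On day 6 they were 13760 ± 305 (SD, n = 4) and 12740 ± 2572 (SD, n = 4). Without the most abundant member, the day 1 sums were 7695 ± 1129 and 3084 ± 440 (SD, n = 4). Since every member was chosen for a low starved value on day 1, the sums of that day describe the choice. The control levels of that day also follow in part from it, since a d of -1 needs a control mean of at least 1 TPM. The shares beside all features tested are therefore a description.

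The starved roots moved between the days more than the control roots did. From day 1 to day 6 the starved mean was higher for 90 of 91 members, with a median log2 change of 1.30, and the control mean for 54 members, with a median of 0.11. From day 1 to day 3 the starved mean was higher for 87 members, with a median of 0.65, and the control mean for 34, with a median of -0.14. Because the rule fixed a low starved value on day 1 and a like value on day 6, these directions describe the choice.

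**Figure D1:**
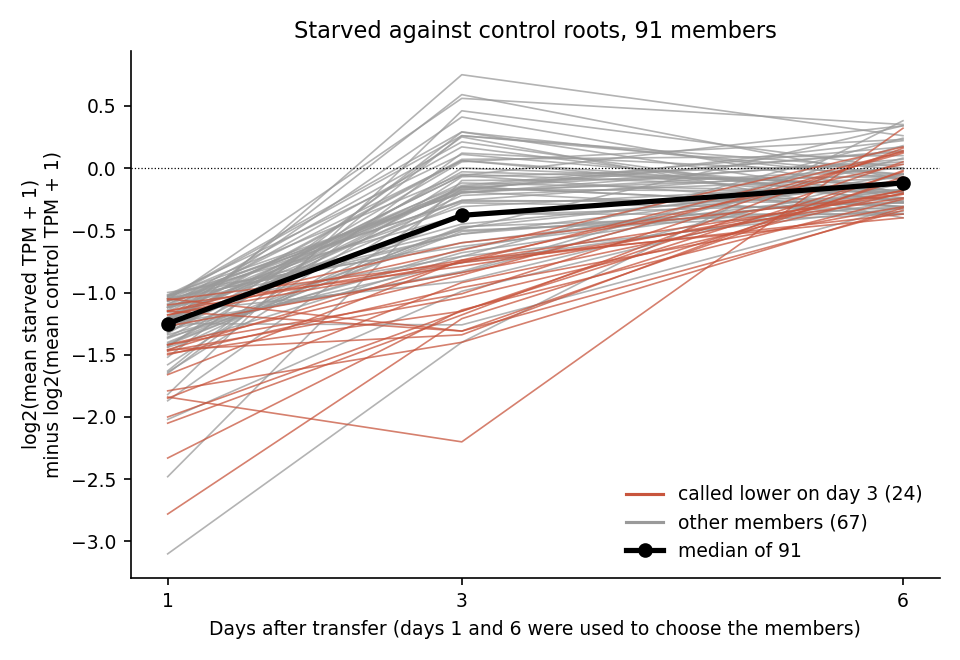
Starved against control roots for each of the 91 members (lines) on days 1, 3 and 6, as the difference of log2(mean TPM + 1), with the median as a heavy black line. The median goes from -1.25 to -0.38 and -0.12, and the 24 members called lower on day 3 (red) spread from near the middle to the lowest values; days 1 and 6 were used to choose the members.

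Day 3 lay between days 1 and 6 and was not used by the rule. Because the rule chose low starved values on day 1, a smaller difference on day 3 follows in part from the choice. The starved mean lay below the control mean for 73 of 91. In limma, with p-values adjusted over all 29422 features tested in roots, 24 of 91 members were called lower and 1 higher in starved roots on day 3, at an adjusted p under 0.05, beside 3.69% of all features called lower and 4.0% called higher. The fitted log2 fold change was negative for 74 members, with a median of -0.39, against 56.1% of all features and a median of -0.04. The 24 members called lower had log2 fold changes of -2.19 to -0.58, and for 20 of them the starved and control libraries did not overlap. Over all members, 23 were lower without overlap, against 6.10% of all features, and 1 was higher without overlap. All root groups share the estimate of spread in that fit, the day 1 and day 6 libraries included. With the 8 libraries of day 3 alone, 15 of the 89 members tested were called lower and 1 higher, beside 2.39% of all features called lower.

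The count depended on single libraries. The number called in either direction was 12 without control d of day 3, 14 without starved a and 16 without starved b, while it was 24 without starved d, the library of low weight. Median d on day 3 went from -0.38 to -0.19 without control d. Relative to the mean of the 12 control root libraries, the members' median log2 level on day 3 was 0.26 in control d and -0.34, -0.31 and -0.27 in control a, b and c. The same medians were -0.79, -0.85, -0.37 and -0.33 in starved a to d. All 4 starved libraries lay below zero and below control d, but starved c and d lay close to control a, b and c. Over all features tested in roots, the medians of these 8 libraries ran from -0.18 to 0.16.

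**Figure D2:**
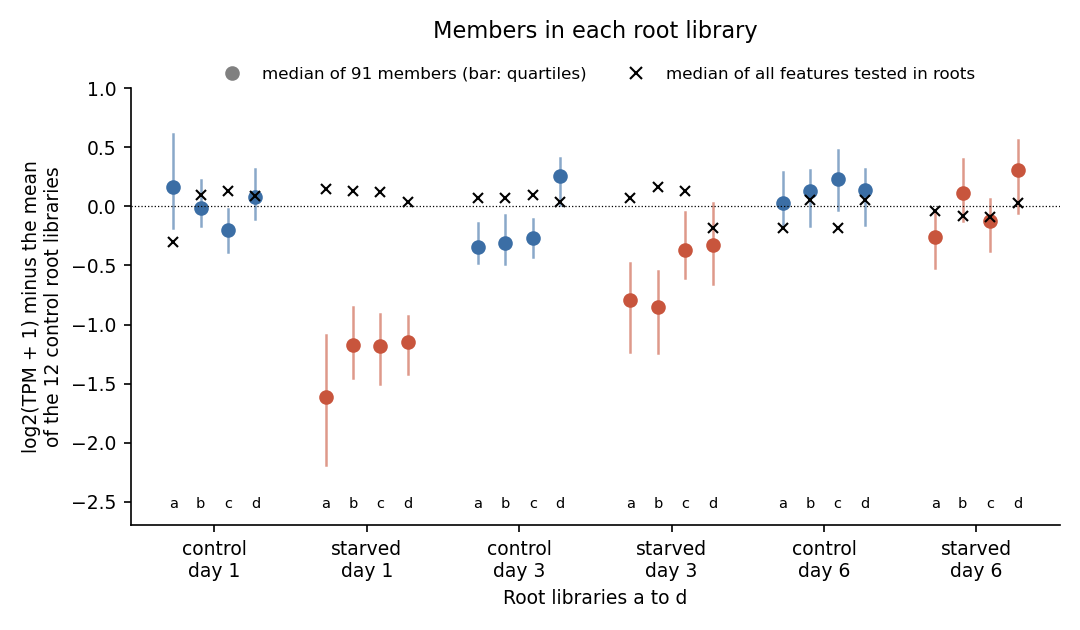
Median (dots) and quartiles (bars) over the 91 members of log2(TPM + 1) minus the mean of the 12 control root libraries, in each of the 24 root libraries, with the median of all features tested in roots as crosses. The 4 starved libraries of day 1 lie between -1.61 and -1.15, those of day 3 between -0.85 and -0.33, and those of day 6 between -0.26 and 0.31.

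The return was uneven among members. On day 3, d was -1 or lower for 14 members, between -1 and -0.4 for 31, between -0.4 and 0.4 for 41, and 0.4 or higher for 5. As a share of d on day 1, d on day 3 had a median of 33.3%, quartiles of 5.04 and 57.6%, and a range of -57.7 to 124%. The rule chose large differences on day 1, so a share under 100% follows in part from the choice. The shares also rest on control d of day 3, without which median d of that day was -0.19. Across the 91 members, d on day 1 and on day 3 were weakly related (Spearman's rho 0.266, Pearson's r 0.360), as a description over genes that share the same libraries. The 24 members called lower on day 3 had a median d of -1.46 on day 1 and a median coding length of 1036 bases, against -1.23 and 720 bases for the other 67. Their median level in control roots of day 6 was 53.2 TPM, against 25.4 TPM for the others. The log2(TPM + 1) scale understates changes of low features, and starved d of day 3 followed coding length. A call can therefore depend on level and length, and how far it did was not tested. Both groups held members near the limit of the rule and members far below it, since their day 1 values ran from -2.78 to -1.05 and from -3.10 to -1.0.

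Bo4g108680 had the lowest fold change of day 3. In control roots it stood at 154, 154, 96.0 and 126 TPM on day 1, and in starved roots at 35.2, 43.8, 29.2 and 36.8 TPM. On day 3 the control libraries held 123, 216, 160 and 179 TPM and the starved libraries 30.5, 36.3, 30.8 and 46.9 TPM. The starved level was thus about the same on both days, with means of 36.2 ± 5.99 and 36.1 ± 7.66 TPM (SD, n = 4), and the groups were far apart on each. The log2 fold change on day 3 was -2.19 with an SE of 0.20 (limma adjusted p = 2.34e-07). On day 6 the control libraries held 78.9, 98.5, 106 and 80.6 TPM and the starved libraries 81.4, 95.6, 127 and 153 TPM, and the groups overlapped.

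Bo3g165510 kept a smaller part of its difference. Control roots of day 1 held 176, 147, 125 and 113 TPM, and the starved roots 37.7, 29.7, 43.0 and 48.5 TPM. On day 3 the control libraries were at 148, 169, 149 and 182 TPM, and the starved ones at 40.2, 36.2, 73.6 and 93.6 TPM. All 4 starved libraries lay below all 4 controls on both days, and on day 3 starved c and d were closer to the controls than a and b. The log2 fold change on day 3 was -1.50 with an SE of 0.25 (limma adjusted p = 0.000430). On day 6 starved roots, at 83.1, 152, 127 and 150 TPM, overlapped with controls, at 159, 145, 213 and 123 TPM.

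Bo2g008590 was the 1 member called higher on day 3. It went from 48.9, 33.4, 28.1 and 36.3 TPM in control to 16.5, 13.3, 12.8 and 14.5 TPM in starved roots on day 1. Controls of day 3 held 35.7, 33.2, 31.3 and 37.8 TPM, and the starved libraries 64.5, 50.3, 48.2 and 72.1 TPM. The order of the groups had turned round, with no overlap on either day. The log2 fold change on day 3 was 0.74 with an SE of 0.15 (limma adjusted p = 0.00245). On day 6 the starved libraries, at 66.8, 63.3, 60.6 and 51.2 TPM, and the controls, at 53.9, 45.8, 54.8 and 46.5 TPM, overlapped.

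The 2 members of lowest d on day 1, among those with at least 10 TPM in control roots, were nearly absent from starved roots on that day. Bo8g094390 held 19.3, 17.6, 16.7 and 19.3 TPM in control libraries, against 0.856, 1.55, 1.52 and 1.04 TPM after starvation. On day 3 its controls held 13.4, 2.59, 11.9 and 18.2 TPM, and starved a, b and d held 1.61, 0.432 and 2.48 TPM. Starved c lay above control b, so the groups overlapped, and the log2 fold change of -1.61, with an SE of 0.51, did not pass the test (limma adjusted p = 0.0588). On day 6 control roots held 5.82 ± 2.04 TPM and starved roots 7.91 ± 4.68 TPM (SD, n = 4), so the control level itself was below that of day 1.

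Bo7g106670 returned toward a steady control level. Control roots held 11.9 to 22.8 TPM on day 1, and starved roots 0.308, 1.91, 0.939 and 2.39 TPM. On day 3 the lowest control held 10.8 TPM and the starved libraries 4.05, 2.49, 3.58 and 8.55 TPM. The groups did not overlap on either day, and the starved libraries had come part of the way up. The log2 fold change on day 3 was -1.31 with an SE of 0.29 (limma adjusted p = 0.00621). On day 6 the control libraries held 10.8 to 23.3 TPM, and the starved libraries, at 12.7, 15.4, 13.9 and 15.1 TPM, lay within that range.

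The most abundant member, Bo8g112960, held 5263, 5337, 4035 and 5974 TPM in control roots of day 1 and 2158, 2271, 2101 and 1884 TPM in starved roots. On day 3 the controls held 3013, 3258, 3388 and 5125 TPM and the starved libraries 3350, 2391, 3482 and 3455 TPM. The groups overlapped on day 3, with control d above and starved b below the other 6 libraries. The log2 fold change of -0.21, with an SE of 0.17, did not pass the test (limma adjusted p = 0.613). Day 6 means were 5090 ± 388 TPM for controls and 4802 ± 935 TPM for starved roots (SD, n = 4).

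Bo8g001350, the next most abundant member on day 1, held 1086, 986, 818 and 1057 TPM in control roots, against 544, 430, 391 and 369 TPM in the starved ones. Controls of day 3 held 520, 390, 582 and 687 TPM and the starved libraries 288, 253, 479 and 356 TPM. Starved c lay above control b, so the groups overlapped. The log2 fold change of -0.68, with an SE of 0.21, was near the threshold (limma adjusted p = 0.0463). On day 6 the means were 706 ± 128 TPM for controls and 797 ± 189 TPM for starved roots (SD, n = 4).

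**Figure D3:**
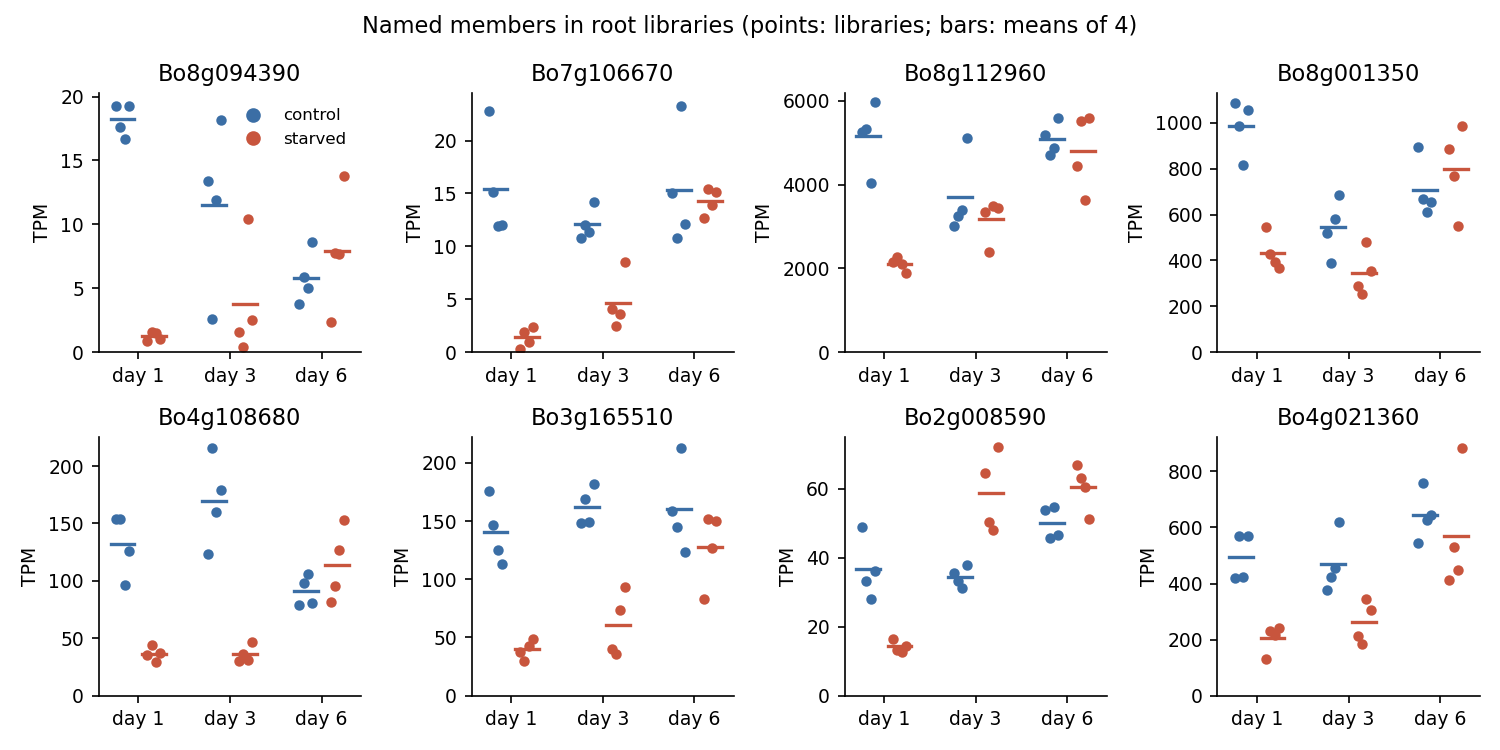
TPM of 8 named members in each control (blue) and starved (red) root library by day, with group means as bars and a scale from 0 in each panel. All members lie lower in starved roots on day 1 without overlap, as the rule required. On day 3 Bo4g108680 and Bo3g165510 are still lower, at means of 36.1 and 60.9 TPM, and Bo2g008590 is higher, at 58.8 TPM. Bo7g106670, Bo4g021360 and Bo8g001350 were also called lower on day 3, the last of them with overlap.

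The calls of the contrasts that the rule used are given for scale only. On root day 1, 86 of 91 members were called lower and 0 higher, beside 4.25% and 4.15% of all features. On root day 6, 0 were called in either direction, beside 6.60% lower and 9.0% higher, and 2 had an unadjusted p under 0.05. The starved and control libraries of day 6 overlapped for 89 members. The fitted log2 fold change of day 6 was negative for 66 members, against 44.6% of all features. Its median was -0.17 for the members and 0.03 for all features. In starved a and c of day 6, 57 and 46 members lay below the lowest control, and in b and d 13 and 10 did.

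The levels of the members in roots and leaves of fed plants are given as a description. The rule asked for a root level on day 1 that could be lowered and was met by genes near 0 in leaves, and 68 of the 91 members did not pass the filter in leaves alone, so a higher level in roots follows largely from the choice. In control plants of day 3, limma over all 48 libraries called 89 of 91 members higher in root than in leaf and 1 lower, beside 69.5% of all features called higher and 17.0% called lower. The median log2 difference was 3.97 for the members and 1.00 for all features. Few features took a larger share of TPM in leaves than in roots, and how far that made the shift of all features was not tested. After rescaling by medians of ratios, which brought the median of all features to 0.15, 84 members were called higher and 2 lower, with a median of 3.22. Summed TPM of the members was 624 to 838 on average in the 6 leaf groups, against 5188 to 13760 in the 6 root groups.

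Many members were close to undetected in leaves. In every leaf library 57 members, or 62.6%, lay under 1 TPM, against 17.8% of the features tested in roots and 49.4% of the 411 that met the condition of root day 1. At 0 in all 24 leaf libraries were 6 members, where a count of 0 allows up to 3 reads, or 0.105 to 0.585 TPM by gene and library, from counting error only. A member near 0 in both leaf groups meets the condition for leaf day 6 whatever its response, so for these members that condition reports little.

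Bo4g021360 showed the largest difference between the tissues, with 376, 424, 457 and 621 TPM in control roots of day 3 and 0, 0, 0 and 0.418 TPM in control leaves. Its log2 difference was 8.73 with an SE of 0.22. It was also among the members lower in starved roots on day 3, at 213, 183, 345 and 304 TPM, all below the controls, with a log2 fold change of -0.86 and an SE of 0.24 (limma adjusted p = 0.0265). Bo7g114280 followed, with 382, 445, 445 and 571 TPM in roots and 0.0402, 0.0450, 0.113 and 0.769 TPM in leaves, a log2 difference of 8.56 with an SE of 0.22. In starved roots of day 3 it held 264, 252, 431 and 384 TPM, which overlapped with the controls (limma adjusted p = 0.241).

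Bo3g167210 was the 1 member called higher in leaves. It held 8.73, 11.8, 9.10 and 16.9 TPM in control roots of day 3 and 287, 376, 397 and 330 TPM in control leaves, a log2 difference of -4.82 with an SE of 0.21 (limma adjusted p = 5.77e-24). In roots of day 1 it had gone from 15.2, 17.5, 12.8 and 16.1 TPM in control to 5.55, 6.16, 8.87 and 7.52 TPM in starved libraries. Its leaf means were 348 ± 60.7 TPM in control and 299 ± 66.2 TPM in starved plants of day 1 (SD, n = 4). It was far more abundant in leaves than in roots, and its leaf libraries of day 1 overlapped between treatments. Bo4g006850 was the 1 member called in neither direction, with a log2 difference of -0.13 and an SE of 0.23 (limma adjusted p = 0.586).

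**Figure D4:**
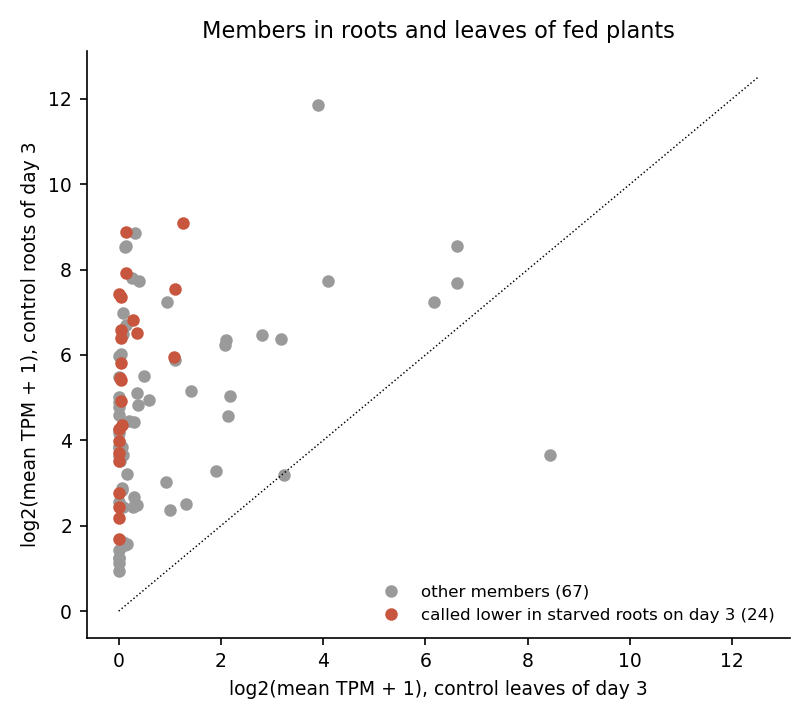
Mean level of each of the 91 members in control roots against control leaves of day 3, both as log2(mean TPM + 1) of 4 libraries, with the line of equal levels dotted. Most points stand in a column near 0 on the leaf axis, and 1 member, Bo3g167210, lies far to the right of the line.

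Leaves showed no called response of the members on the days that the rule did not use. The filter of 1 TPM in at least 4 leaf libraries was passed by 23 members, and the other 68 were not tested. On leaf day 1, limma called 0 of 23 lower and 0 higher, beside 0% and 0% of all 25098 features. The members' log2 fold changes ran from -0.28 to 0.46 with SEs of 0.11 to 0.32 and a lowest adjusted p of 0.986. At an unadjusted p under 0.05 stood 1 member, which was higher, and 627 features in all. With array weights, limma called 1 feature and 0 members.

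On leaf day 3, limma called 0 of 23 members lower and 0 higher, beside 0.00797% and 0.0478% of all features. At an unadjusted p under 0.05, 2 members were lower and 1 higher, and 1153 features stood there in all. Of the 2, Bo4g006850 was lower without overlap, with 7.27 to 9.91 TPM in control and 4.22 to 7.22 TPM in starved leaves. Its log2 fold change of -0.49, with an SE of 0.19, did not pass the test (limma adjusted p = 0.853). The lowest fold change was that of Bo8g112960, the most abundant member in roots. Its control leaves held 19.8, 6.60, 13.6 and 16.1 TPM and its starved leaves 4.64, 3.57, 7.94 and 6.68 TPM. Control b lay within the starved range, and the log2 fold change of -1.12, with an SE of 0.32, did not pass the test (limma adjusted p = 0.363). Control and starved libraries of the same letter correlated at 0.215 to 0.696 in their deviations from group means on that day. Starved a and c matched the control of their own letter best, and starved b and d did not. With the letter as a block, 0 members were called on leaf day 3.

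The difference between the root and leaf fold changes of day 3 was also fitted. In limma over all 48 libraries, the log2 fold change was lower in roots than in leaves for 16 of 91 members and higher for 0, beside 2.65% of all features called lower and 2.19% called higher. Of the 16, 15 were also called lower in roots on day 3, and all 16 lay under 1 TPM in every leaf library, so their leaf log2 fold changes on this scale could not exceed 1 in size. The difference there largely restates the root values and gives no separate comparison of the responses. For Bo4g108680 the difference was -2.25 with an SE of 0.23 (limma adjusted p = 2.29e-09), and for Bo3g165510 it was -1.54 with an SE of 0.28 (limma adjusted p = 0.000322, or 0.0960 with a pseudocount of 0.1). Their leaf means of day 3 were at most 0.0658 TPM in any group. No member with 1 TPM or more in any leaf library was called in this test.

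Between days 1 and 3 of fed leaves, 1 member was called. Limma called 0 of 23 lower and 1 higher on day 3, beside 0.402% and 0.889% of all features. The fitted log2 change was positive for 16 of the 23, against 52.0% of all features. At an unadjusted p under 0.05 in limma, 5 members were higher and 0 lower, and 2858 features stood there in all. Without overlap, 3 members were higher. The member called was Bo4g006850, which went from 5.11, 3.85, 4.77 and 3.08 TPM to 9.91, 7.33, 9.07 and 7.27 TPM, without overlap. The log2 change was 0.86 with an SE of 0.19 (limma adjusted p = 0.0269). It missed the threshold without leaf control b or d of day 1 (limma adjusted p = 0.0643 and 0.118) or without a or c of day 3 (0.0942 and 0.0949), and with the groups of days 1 and 3 in control leaves alone (0.113).

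The set was compared with the other features low on root day 1, to show what its return on day 6 went with on day 3. Lower without overlap on day 3 were 23 members, or 25.3% of 91. Among the 263 features still low on day 6 it was 175, or 66.5%, and among the 34 that had become higher it was 2, or 5.88%. Among the 23 features that met both root conditions but not that for leaves, the set most like the members, it was 4, or 17.4%. Median d on day 3 was -0.38 for the members, -1.14 for those still low, -0.28 for those that became higher and -0.61 for those that failed the leaf condition. The sets were divided by their day 6 values in the same study, so these shares are a description with no test.

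Coding lengths, recovered from the steps of the TPM values, had a median of 759 bases over the members, with quartiles of 408 and 1352 bases and a range of 162 to 2559 bases. The median was also 759 bases over the 411 features of the day 1 condition and 1035 bases over the features tested in roots. Across members, Spearman's rho of coding length with d on day 1 was -0.0120. The rule cut the range of that d, so the value cannot show a lack of relation. With d on day 3 rho was -0.218, where the library starved d itself followed coding length. Control a of root day 1, which the rule used, followed coding length most (rho -0.528 across features), with shorter features higher. How far that shaped the members' lengths was not tested.

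The digit that follows Bo in the IDs was compared between the members and the tested features as a description, with no test. It was 4 for 18 members, or 19.8% against 10.8% of the tested features, and 9 for 4 members, or 4.4% against 11.7%. For the other 7 digits the members' share differed by less. In 1 member, Bo00866s060, the ID had another form.

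Neighbouring IDs, no more than 50 steps apart, formed 4 pairs of members, which were picked out after their values were seen. Among all 411 features of the day 1 condition there were 38 such pairs. Bo6g120520 and Bo6g120540 had d of -1.50 and -1.85 on root day 1 and -0.96 and -0.92 on day 3, both called lower on day 3 (limma adjusted p = 0.00251 and 0.0114). Bo1g144640 and Bo1g144670 had d of -1.46 and -1.15 on day 1 and -0.75 and -0.60 on day 3, and both were called lower (limma adjusted p = 0.0124 and 0.0418). Bo4g026830 and Bo4g026850, with coding lengths of 1602 and 1605 bases, had d of -2.05 and -1.25 on day 1 and -1.18 and -0.84 on day 3 (limma adjusted p = 0.0255 and 0.0628). In these 3 pairs both genes stayed below control on day 3, although 1 of the 6 genes missed the threshold. The fourth pair joined the most abundant member, Bo8g112960, at 2104 TPM in starved roots of day 1, with Bo8g112930, at 3.23 TPM. On day 3 Bo8g112930 was called lower, with a d of -0.86 (limma adjusted p = 0.0309), and Bo8g112960 was not, with a d of -0.22. Reads of near-identical neighbours could be divided between them by the counting, which was not checked without sequences.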

How the data were processed

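Per the labels, column-purified and DNase-treated RNA went to DNBseq sequencing. STAR 2.7.10a, cutadapt 4.1, FastQC 0.11.9 and DESeq2 stand in the submitters' processing notes, without what each was used for. Counting tool, genome build and annotation: not given in the sources used here. TPM, deposited by the authors for 60586 features in 48 libraries, adds up to 1000000 in each library, so a value depends on all others of that library. The members and lists were chosen with earlier results of these data known.

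From the steps between TPM values, whole reads and coding lengths were recovered for each of the 44911 features detected in at least 2 libraries, with every value within 0.02 reads of a whole number. They were used only for depth, coding length and limits, and no count test was run. Differences were tested with limma 3.58.1 in R 4.3.3 (lmFit, eBayes with trend) on log2(TPM + 1), which understates changes of low features, with 1 term per group. The filter asked for 1 TPM or more in 4 or more of the libraries fitted, which left 29422 features for roots, 25098 for leaves and 31520 for both tissues together. A call is a Benjamini-Hochberg adjusted p under 0.05 over all of them. The procedure was tested on simulated data. Tables were handled in Python 3.11.15 with numpy 2.4.6, pandas 2.3.3 and matplotlib 3.10.9.

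Members named are the 2 of lowest d and the 2 of highest control level on root day 1, the 2 just inside the limit of that day, and up to 2 called in each direction per test with no overlap. Alternatives were a pseudocount of 0.1, no filter, rescaling by medians of ratios, the replicate block, fits restricted to the contrasted groups, array weights, leaving out 5 libraries of low weight or each library in turn, a log2 fold change of at least 1, and for the set itself narrower day 6 limits. Letters a to d were checked as pairs by correlating deviations from group means. All 4 correlations were above 0.1 only on leaf day 3 (0.215 to 0.696), where the starved library matched its own letter best for a and c only. The reported fits held no term for the letter, and the replicate block was run as an alternative for each test.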

Additional observations from a re-analysis of the deposited data

Results flagged for a closer look

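In 108 groups of 4 libraries, 5 held a library far from the other 3, where chance gives about 1 in 20. The members' median log2 level relative to the control roots was -1.61 in starved a of root day 1, below the other 3, and 0.260 in control d of root day 3, above the other 3. Control d of day 3 also held the highest sum of the members' TPM in its group, 13853. Bo8g112960 was lowest in starved b of root day 3, at 2391 TPM, and Bo4g006850 was highest in control d of root day 1, at 11.5 TPM.

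The limma interaction test of day 3 called 16 members, all with the lower fold change in roots. The difference was -2.25 for Bo4g108680 and -1.54 for Bo3g165510 on the log2 scale. All 16 lay under 1 TPM in every leaf library, where the fold change on the log2(TPM + 1) scale could not exceed 1 in size, and these values largely restate the root fold changes.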

How the results depend on the processing

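Of the recomputed counts, 97 were within 1.5 times the reported count and 18 were not. Counts that stayed at 0 are among the 97, and direction was not compared for counts. Of the recomputed fold changes of named members, 151 still passed the test, 9 did not, and 0 turned direction. In roots on day 3, the 25 members called became 16 with only the groups of the contrast, 41 with array weights and 12 with a log2 fold change of at least 1; leaving out 1 library at a time gave 12 to 28. The 16 members that differed between tissues on day 3 became 38 with array weights, and 11 to 22 without single libraries. The 1 member that changed in control leaves became 0 with only the groups of the contrast, without the 5 libraries of low weight or at a log2 fold change of at least 1, 3 with array weights, and 0 to 2 without single libraries. The set of 91 became 138 on rescaled TPM, 81 of them shared, 37 with day 6 limits of 0.2 and 0.25, 100 with a pseudocount of 0.1, 54 of them shared, and 83 to 111 without single libraries of root day 1. The count of 90 members that differed in level between tissues was 85 to 90, and the 0 calls in starved leaves stayed 0 in every setting. With the replicate block, 25 members were called in roots on day 3, 24 in the difference between tissues, and no other count of members changed; the letters did not pass the check as pairs in roots on day 3 (0.0112 to 0.158) or in leaves on day 1. The difference of Bo3g165510 had an adjusted p of 0.0960 in limma at a pseudocount of 0.1. The causes were not tested. In leaves 68 members were below the filter of 1 TPM in at least 4 libraries and were not tested.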
